A study of Macaca fascicularis with 2 samples.

Results

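Fibroblast growth factors (FGFs) are secreted proteins that bind heparan sulfate chains around cells and signal through receptor tyrosine kinases, the FGF receptors, which activate the RAS and ERK cascade among others. In cartilage, *FGF2* and *FGF18* encode the best-studied ligands, *FGFR1* and *FGFR3* encode the main receptors of chondrocytes, and *FGFR3* is known as a brake on chondrocyte proliferation in the growth plate. In the embryo, FGF signalling also acts on the notochord, and the notochordal cells (NCs) of the nucleus pulposus (NP) derive from that structure.

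The genes described here were 9 FGF ligands and receptors chosen by name (*FGF1*, *FGF2*, *FGF7*, *FGF10*, *FGF18*, *FGFR1*, *FGFR2*, *FGFR3* and *FGFRL1*). Of these, 7 were among the 21371 listed genes, namely 4 of 5 ligands and 3 of 4 receptors. *FGF1*, a ligand of all FGF receptors, and *FGFRL1*, a receptor-like protein without a kinase domain, were not analysed here.

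Cells of NP and articular cartilage (AC) from 2 male wild type cynomolgus monkeys, *Macaca fascicularis*, 3 years old, were sequenced in 1 pooled library. It was made with TAS-seq, a method that amplifies cDNA of single cells captured with beads. Before pooling, the tissue samples were stained with tags A951 to A954, and the labels name no treatment. The labels list 3 tissue samples and do not pair tags with tissues, so tags are given here by number only. After exclusion of 42 cells marked as doublets by their tags and 7 without a tag, and quality limits that removed 21 more, 5653 of 5723 cells remained, with a median of 198432 reads per cell (24907 to 1290096).

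NCs were defined as cells with 5 or more reads of both *KRT19*, a keratin, and *TBXT*, the notochord transcription factor. The rule gave 310 NCs, and the remaining 5343 cells are called other cells. The NCs were spread unevenly over the tags, with 67 in A951 (6.73% of its cells, 95% interval 5.26 to 8.47%), 236 in A952 (21.0%, 18.6 to 23.5%), 5 in A953 (0.363%, 0.118 to 0.845%) and 2 in A954 (0.0928%, 0.0112 to 0.335%). The number of other cells was 928 in A951, 889 in A952, 1372 in A953 and 2154 in A954. Of the 310 NCs, 13 had 5 to 9 reads of the scarcer of both markers, and 17 other cells lay just outside the rule, with 5 or more reads of one marker and 1 to 4 of the other. With cells that had 0 reads of the other marker included, 53 other cells reached 5 reads of *KRT19* only and 32 of *TBXT* only.

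The median depth was 186370 reads in NCs and 199072 in other cells. Levels are given as reads per 1000000 summed reads of a group (RPM), with exact Poisson intervals, and shares of cells as percent with exact Clopper-Pearson intervals, both at the 95% level. Reads were not collapsed to molecules, so the intervals cover counting error only and are too narrow for PCR copies. All cells came from 1 library without replicate libraries. Therefore no test was made, and differences are compared with the spread between tags. Since reads were counted over whole genes of unknown length, RPM values are compared between cells for 1 gene, and gene levels are not compared with each other. Where markers are summed, or a gene is called the highest of a list, this refers to RPM without correction for length.

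The label of the NCs held for markers outside the rule. Cadherin 2 (*CDH2*) was at 120 RPM in NCs and 1.16 in other cells, *NCAM1* at 506 and 25.2, and *SHH*, the hedgehog ligand of the notochord, at 98.7 and 0.847. *KRT8*, *KRT18* and *CD24* were not analysed here. Of the 5 chondrocyte markers, *COL2A1* (1269 RPM in NCs, 20072 in other cells), *COL9A1* (236 and 5200) and *COL11A1* (678 and 2788) were lower in NCs. The proteoglycan gene *ACAN* (14440 and 3968) and the transcription factor *SOX9* (1120 and 346) were higher.

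Markers of other cell types were summed per group. The 5 endothelial markers summed to 3.72 RPM in NCs and 3.04 in other cells, with *VWF* the most abundant (1.41 and 1.32), and *CDH5* had no cell with 5 reads in either group. The 4 immune markers summed to 22.8 and 22.3 RPM, led by *CD68* (9.64 and 17.4), with the defining gene *PTPRC* at 1.30 and 0.700. *ALAS2*, the only red blood cell marker with values, was at 0.0151 and 0.0455 RPM. The 4 mural cell markers summed to 92.9 and 35.2 RPM, with *ACTA2* (70.7 and 6.54) the highest in NCs and *PDGFRB* (12.7 and 23.5) the highest in other cells, while the smooth muscle gene *MYH11* was at 0.954 and 2.17. The 4 bone markers summed to 56.8 and 194 RPM, led by *CTSK* (52.7 and 144), with *IBSP* at 0.575 and 30.0, *BGLAP* at 3.07 and 19.7 and *ACP5* at 0.439 and 0.0471. In NCs, the mural sum was 30.2 RPM in A951, 112 in A952, 3.97 in A953 and 98.9 in A954, and the bone sum was 28.6, 64.1, 48.5 and 7.61 RPM. In other cells, the mural sum was 38.7, 35.5, 29.4 and 37.2 RPM in the order of the tags, and the bone sum was 140, 160, 275 and 177 RPM. The part of these cells in the FGF values was not tested.

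Of the 7 measured members, *FGF2*, *FGF18* and *FGFR1* were lower in NCs than in other cells, and *FGFR3* and *FGFR2* were modestly higher. *FGF18* was 11.1-fold, *FGF2* 8.39-fold and *FGFR1* 2.55-fold lower in NCs, while *FGFR3* was 1.86-fold and *FGFR2* 1.47-fold higher. *FGF7* and *FGF10* were barely detected in either group. Thus 3 of 7 members were at least 2-fold lower and 0 were at least 2-fold higher. Among the 13498 genes with a read in at least 1% of cells, 13.6% were at least 2-fold lower and 24.5% at least 2-fold higher in NCs. Of the 5 members at 10 RPM or more in either group, 3 were lower and 0 higher, beside 11.4% lower and 25.9% higher among the 8522 genes at that level.

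The comparison had a shift. The median log2 ratio of the 8522 genes was 0.34, so a gene at the median was slightly higher in NCs. Relative to that median, the log2 ratios were -3.82 for *FGF18*, -3.41 for *FGF2*, -1.69 for *FGFR1*, 0.22 for *FGFR2* and 0.56 for *FGFR3*. The direction of each was the same with and without centring. *FGF18* lay at the 2.16th and *FGF2* at the 2.79th percentile of the 8522 ratios, *FGFR1* at the 8.24th, *FGFR2* at the 59.5th and *FGFR3* at the 71.0th.

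**Figure D1:**
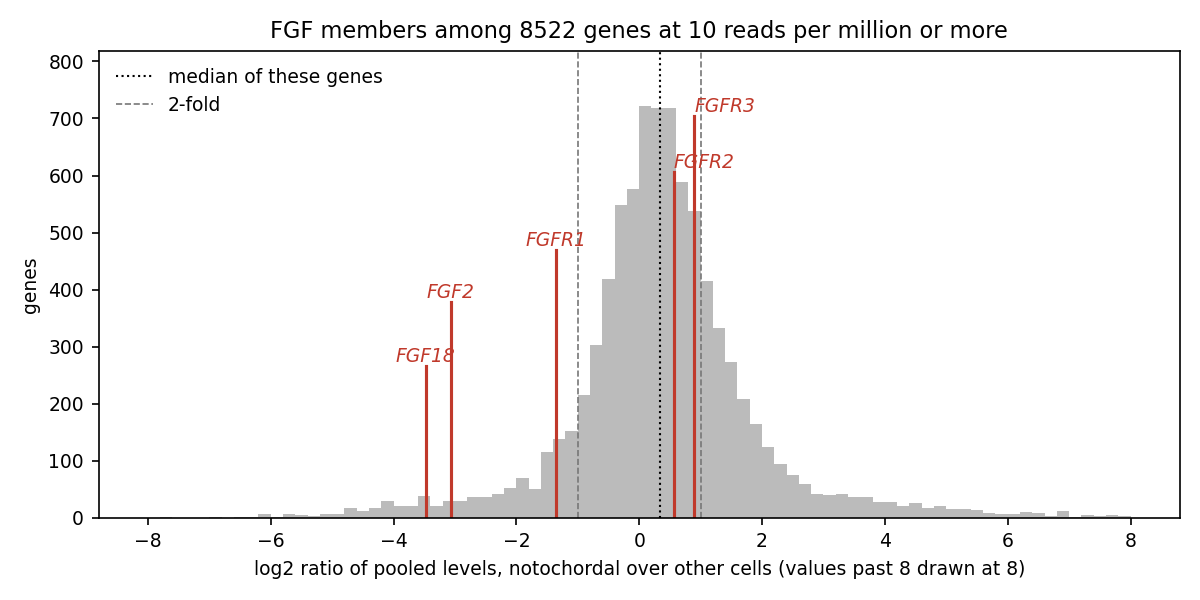
Histogram of the log2 ratio of pooled levels, NCs over other cells, for 8522 genes at 10 RPM or more in either group, with 5 FGF members as red lines, the median as a dotted line and 2-fold limits as dashed lines. The line heights carry no value. *FGF18* and *FGF2* sit in the low tail below the 3rd percentile, whereas *FGFR2* and *FGFR3* sit within the bulk of the genes.

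Among the ligands, *FGF2*, a heparin-binding factor that cartilage stores around its cells, was at 53.0 RPM in NCs (51.2 to 54.8) and 445 RPM in other cells (444 to 446). In other cells its level was 460 RPM in A951, 460 in A952, 488 in A953 and 408 in A954. In NCs it was 39.9 RPM in A951, 43.0 in A952, 354 in the 5 cells of A953 and 11.4 in the 2 cells of A954. Other cells were thus close to each other over all 4 tags, and each tag's NCs lay below its other cells, least so in A953. In the tags with at least 50 NCs, the log2 ratio was -3.53 in A951 and -3.42 in A952, and the pooled value was -3.07 (-3.12 to -3.02). Of the 3501 NC reads of the gene, 802 came from the 5 A953 NCs, and without A953 the pooled log2 ratio was -3.34, whereas without A952 it was -2.33. The value also depended on how NCs were defined, since with 1 read of each marker as the rule, which gave 408 NCs, it was -1.23. In these 5 cells the gene had 28, 2, 266, 140 and 366 reads, in order of increasing depth, and the cell with 266 reads held 13936 RPM of *COL2A1*.

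The share of cells carrying *FGF2* was also lower in NCs overall. It had 5 or more reads in 47 of 310 NCs (15.2%, 11.4 to 19.6%) and 3826 of 5343 other cells (71.6%, 70.4 to 72.8%). By tag, the share in NCs was 10.4% in A951, 15.3% in A952, 4 of 5 cells in A953 (80%, 28.4 to 99.5%) and 0 of 2 in A954, and in other cells 70.2%, 66.8%, 74.6% and 72.3% in the order of the tags. When each cell was thinned to 50000 reads, which left out 11 NCs and 196 other cells, the shares were 10.0% and 64.3%. Most positive NCs held traces. With a minimum of 1 read the share was 63.2% in NCs and 87.4% in other cells, but the median positive NC had 2 reads against 74 in positive other cells. For scale, *KRT19*, low by definition in most other cells, had 1 read or more in 10.6% and 5 or more in 0.992% of them.

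*FGF18*, a ligand that acts on chondrocytes largely through *FGFR3*, was at 12.0 RPM in NCs (11.2 to 12.9) and 134 RPM in other cells (133 to 134). Its level in other cells was 128 RPM in A951, 127 in A952, 93.0 in A953 and 162 in A954. In NCs it was 8.93 RPM in A951 and 13.3 in A952, and the NCs of A953 and A954 held 1 read each. The tags did not overlap between the groups, the lowest tag of the other cells being several times above the highest of the NCs. The log2 ratio was -3.48 in all cells (-3.58 to -3.38), -3.84 within A951 and -3.26 within A952.

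Only 9 of 310 NCs (2.90%, 1.34 to 5.44%) had 5 or more reads of *FGF18*, against 1399 of 5343 other cells (26.2%, 25 to 27.4%). A single A952 NC gave 216 of the 793 NC reads (27.2%), and without that cell the log2 ratio was -3.91. In A951 a single NC held 89 of 109 reads. With 1 read of each marker as the rule for NCs the ratio was -1.11, and without A952 it was -4.16. In other cells the gene was also confined to part of the cells, since the 10% with the highest levels held 73.0% of its reads and the median cell had none. For *FGF2*, the 10% of other cells highest in that gene held 31.3% of its reads, and the median other cell was at 243 RPM. The share of other cells with 5 or more *FGF18* reads was 24.4% in A951, 22.9% in A952, 20.9% in A953 and 31.7% in A954. Thinned shares were 2.01% in NCs and 20.8% in other cells.

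*FGF7*, the keratinocyte growth factor, and *FGF10*, the limb bud and lung ligand, both act through an epithelial form of *FGFR2*. *FGF7* had 17 reads in NCs and 340 in other cells, or 0.257 and 0.267 RPM, and 50 of the 340 came from 1 cell. *FGF10* had 28 and 341 reads, or 0.424 and 0.267 RPM. The median positive cell had 1 read of either gene in both groups. No NC had 5 reads of them, and for 0 of 310 cells the upper exact bound of the share was 1.18% (3 cells would be 0.968%). Of the other cells, 3 had 5 or more reads of *FGF7* and 1 of *FGF10*. The share with at least 1 read was 5.48% of NCs and 4.66% of other cells for *FGF7*, and 8.71% and 6.06% for *FGF10*. *SHH*, a gene of the NCs, had at least 1 read in 8.20% of other cells and 5 or more in 0.206%. The *FGF7* shares were below that 1-read share. In NCs, however, the intervals of the *FGF7* share (3.23 to 8.64%) and the *FGF10* share (5.82 to 12.4%) both included it. In A951 the *FGF10* share was 13.4% of NCs (6.33 to 24.0%) and 5.93% of other cells (4.50 to 7.64%), on 10 and 58 reads. No difference between the groups is read from such single reads.

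**Figure D2:**
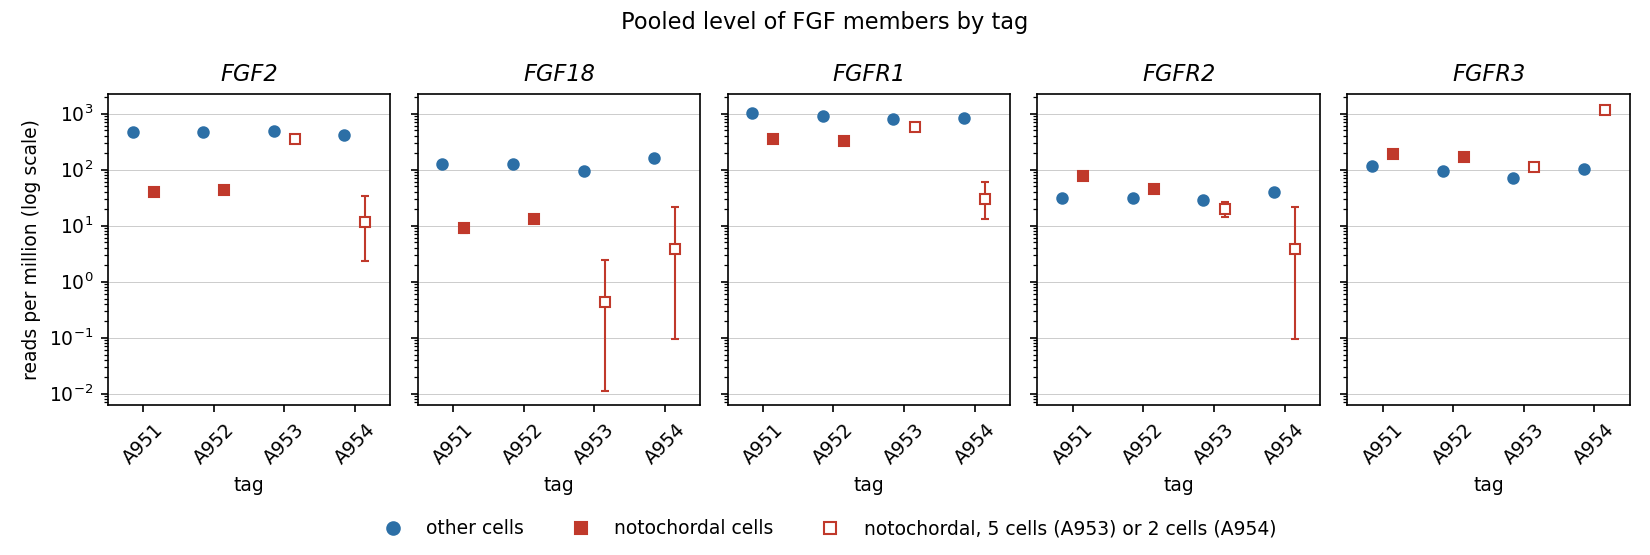
Pooled level in RPM (log scale) of 5 FGF members in other cells (blue circles) and NCs (red squares) of each tag, with exact 95% Poisson intervals, and open squares for the 5 NCs of A953 and 2 of A954. In A951 and A952 the NCs lie below the other cells for *FGF2*, *FGF18* and *FGFR1* and above them for *FGFR2* and *FGFR3*. Heights are comparable within a gene only.

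Among the receptors, *FGFR1*, which carries FGF signals in many mesenchymal cells, was at 340 RPM in NCs (335 to 344) and 867 RPM in other cells (865 to 869). Other cells were at 1004 RPM in A951, 907 in A952, 813 in A953 and 838 in A954. NCs were at 356 RPM in A951, 327 in A952, 568 in A953 and 30.4 in A954, each below the other cells of its tag. The log2 ratio was -1.35 (-1.37 to -1.33), with -1.49 in A951 and -1.47 in A952. With 1 read of each marker as the rule for NCs it was -0.84, under 2-fold. The difference by the main rule exceeded the spread of the other cells over tags, whose highest level was 1.23-fold the lowest. Unlike the ligands, *FGFR1* remained widely detected in NCs, with 5 or more reads in 219 of 310 (70.6%, 65.2 to 75.7%) against 4878 of 5343 other cells (91.3%, 90.5 to 92.0%). The thinned shares were 53.8% and 86.8%.

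*FGFR3* was at 175 RPM in NCs (172 to 178) and 94.2 RPM in other cells (93.6 to 94.7). In other cells it was at 114 RPM in A951, 94.7 in A952, 70.3 in A953 and 101 in A954. In NCs it was at 187 RPM in A951, 170 in A952, 110 in A953 and 1137 in A954, where all 299 reads came from 1 of the 2 cells. The NCs were above the other cells of their tag in 4 of 4 tags. The NCs of A953, however, lay below the other cells of A951, so the groups overlapped across tags. The log2 ratio was 0.90 (0.87 to 0.92), with 0.71 in A951 and 0.85 in A952, and without A952 it was 1.03, past 2-fold. The highest tag of the other cells was 1.63-fold the lowest, a spread not far below the 1.86-fold difference between the groups.

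The share with 5 or more *FGFR3* reads was 49.4% of NCs (43.7 to 55.1%) and 35.7% of other cells (34.4 to 37.0%). In A952 it was 49.6% (43.0 to 56.1%) against 33.6% (30.5 to 36.8%). In A951, where fewer NCs were sampled, it was 46.3% (34.0 to 58.9%) against 35% (32 to 38.2%), and these intervals overlapped. After thinning, the shares were 43.1% (37.5 to 49.0%) and 25.6% (24.4 to 26.8%).

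*FGFR2*, the receptor of mesenchymal and epithelial forms with a role in skeletal progenitors, was at 50.7 RPM in NCs (49.0 to 52.5) and 34.4 RPM in other cells (34.1 to 34.7). Other cells were at 31.5 RPM in A951, 31.0 in A952, 28.4 in A953 and 40.1 in A954. NCs were at 78.4 RPM in A951 and 45.8 in A952, but at 19.4 and 3.80 in the few cells of A953 and A954. NCs were thus higher in the 2 tags with many NCs and lower in the other two. The log2 ratio was 0.56 (0.51 to 0.61), with 1.31 in A951 and 0.57 in A952. The share with 5 or more reads was 23.5% of NCs (18.9 to 28.7%) and 14.7% of other cells (13.8 to 15.7%), and after thinning 14.7% (10.9 to 19.2%) and 9.46% (8.68 to 10.3%).

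Within single tags, the 3 members lower in the pooled comparison were also at least 2-fold lower in A951 and in A952. The share of genes at 10 RPM or more that were at least 2-fold lower was 16.9% in A951 and 12.7% in A952. Of the 5 members at 10 RPM or more, *FGFR2* was the 1 at least 2-fold higher in A951, beside 30.4% of the genes at that level, and in A952 there were 0, beside 26.3%. *FGF7* and *FGF10*, which lie outside that set, were also at least 2-fold higher in A951, on 6 and 10 NC reads. Between the NCs of both tags, *FGFR2* was at 78.4 RPM in A951 and 45.8 in A952, *FGFR3* at 187 and 170, *FGFR1* at 356 and 327, *FGF2* at 39.9 and 43.0 and *FGF18* at 8.93 and 13.3. None of these 5 differed by 2-fold, beside 11.1% of genes at least 2-fold higher and 12% at least 2-fold lower in A951 NCs. With 5 genes, the count does not set the members apart. The *FGFR2* shares, 29.9% in A951 (19.3 to 42.3%) and 22.0% in A952 (16.9 to 27.9%), had overlapping intervals.

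**Figure D3:**
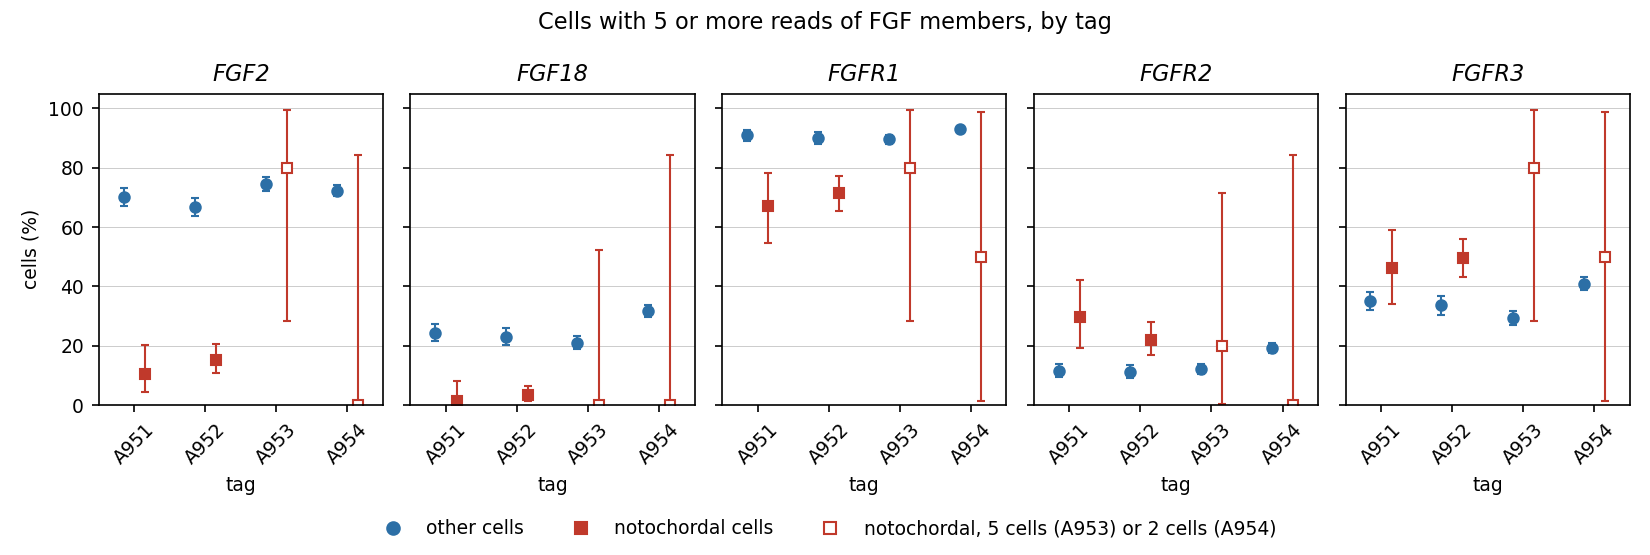
Share of cells with 5 or more reads of 5 FGF members (percent, linear axis) in other cells (blue circles) and NCs (red squares) of each tag, with exact 95% Clopper-Pearson intervals. For *FGF2*, *FGF18* and *FGFR1* the intervals of NCs and other cells are apart in A951 and A952, and the open squares of A953 (5 NCs) and A954 (2 NCs) have intervals too wide to place.

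Among the other cells, 0 of the 5 members at 10 RPM or more differed at least 2-fold between the highest and the lowest tag, beside 5.13% of 7217 genes, so that the count does not set them apart. The ratio of highest to lowest tag was 1.20 for *FGF2*, 1.23 for *FGFR1*, 1.41 for *FGFR2*, 1.63 for *FGFR3* and 1.74 for *FGF18*, and the median gene had 1.31. For *FGFR2* and *FGFR3* this spread was close to the 1.47-fold and 1.86-fold differences between NCs and other cells, and it exceeded the differences that remained after centring on the median gene, whose log2 values were 0.22 and 0.56. The levels of *FGF18* and *FGFR2* and the share of cells with *FGFR3* were highest in A954, and the level in A953 was lowest for *FGF18*, *FGFR1*, *FGFR2* and *FGFR3*. Median depth in other cells was 184588 reads in A951, 175762 in A952, 197492 in A953 and 222696 in A954.

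The receptors were then counted within single cells. In other cells the most common state was *FGFR1* alone, in 2634 cells (49.3%, 47.9 to 50.6%), followed by *FGFR1* with *FGFR3* in 1493 (27.9%, 26.7 to 29.2%). In NCs, *FGFR1* alone was found in 78 cells (25.2%, 20.4 to 30.4%) and *FGFR1* with *FGFR3* in 81 (26.1%, 21.3 to 31.4%). Cells with *FGFR3* but neither other receptor made up 9.03% of NCs (6.09 to 12.8%) and 1.44% of other cells (1.14 to 1.80%). All 3 receptors were present in 13.2% of NCs (9.66 to 17.5%) and 6.21% of other cells (5.58 to 6.89%), and none in 16.1% (12.2 to 20.7%) and 6.61% (5.96 to 7.31%). In thinned cells the share with *FGFR1* alone was 26.1% of NCs and 58.4% of other cells, with *FGFR3* alone 15.1% and 2.74%, and with none 24.7% and 9.31%. The receptor states of NCs were thus more mixed, with more cells lacking *FGFR1*.

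**Figure D4:**
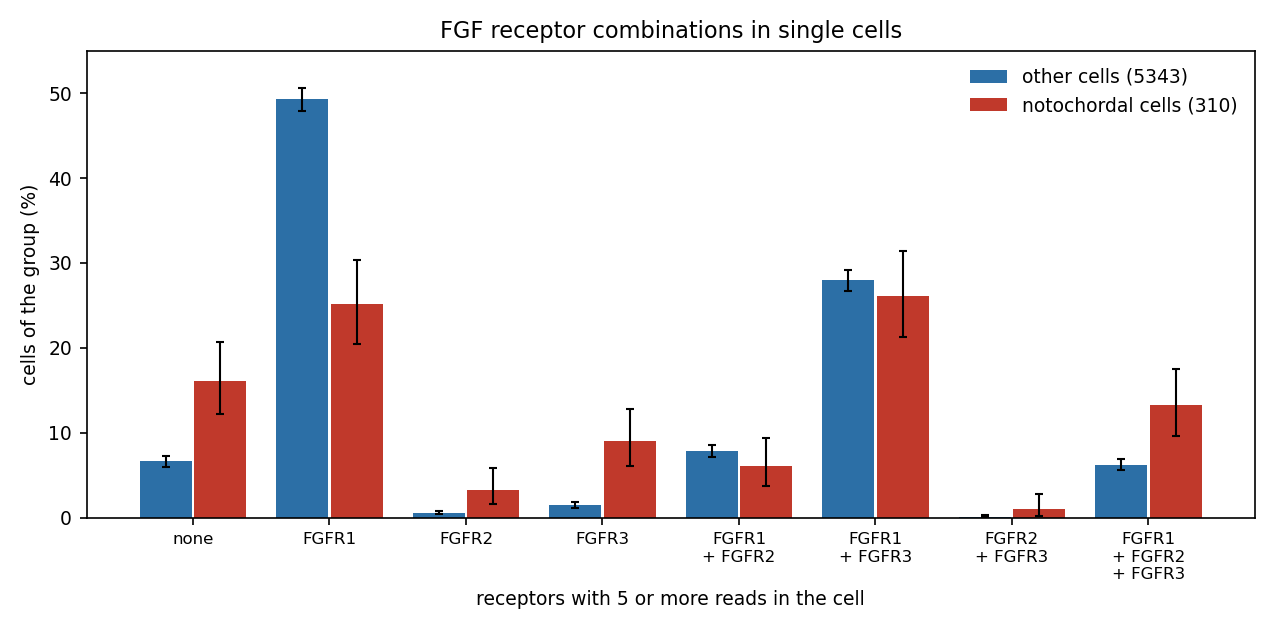
Percent of other cells (blue, 5343) and NCs (red, 310) with each combination of *FGFR1*, *FGFR2* and *FGFR3* at 5 or more reads, with exact 95% Clopper-Pearson intervals. *FGFR1* alone is the tallest bar of the other cells at 49.3%, while in NCs it stands at 25.2% beside 26.1% for *FGFR1* with *FGFR3*.

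Ligand and receptor often occurred in the same cell. Among other cells with 5 or more *FGF2* reads, 95% (94.3 to 95.7%) also had *FGFR1*, against 81.9% (79.9 to 83.8%) of those without. After thinning these were 89.4% (88.3 to 90.4%) and 82.1% (80.3 to 83.8%). *FGF18* was present in 30.4% (29.0 to 31.9%) of other cells with *FGF2* and 15.5% (13.7 to 17.4%) of those without, or 23.9% and 15.3% after thinning. *FGFR3* was present in 45.5% (42.9 to 48.2%) of other cells with *FGF18* and 32.2% (30.8 to 33.7%) of those without, and in thinned cells in 30.0% (27.3 to 32.9%) and 24.5% (23.2 to 25.8%). For *FGFR3* and *FGF2*, the shares of 38% and 29.9% became 25.4% and 26.0% in thinned cells, so that the difference seen for this pair was not present at equal depth. Of the 47 NCs with *FGF2*, 78.7% (64.3 to 89.3%) had *FGFR1*, against 69.2% (63.2 to 74.7%) of the remaining NCs, with overlapping intervals. No gene followed a member closely from cell to cell, since over 5147 thinned other cells and 8697 genes no Spearman correlation with *FGF2*, *FGF18*, *FGFR1* or *FGFR3* reached 0.3, and the highest was 0.214. *FGFR2* was in too few cells to be included.

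Other secreted FGFs, which include signals of the embryo and the hormones of the FGF19 group, were scarce. The counts of this and the other pathway lists stand beside the 24.5% of all tested genes at least 2-fold higher and 13.6% at least 2-fold lower in NCs, and nothing particular to a list is read from them. Of 13 listed, 9 were detected in at least 1% of cells, and 0 reached 10 RPM in either group. *FGF9*, a ligand of developing joints and the highest of them in NCs, was at 1.83 RPM in NCs and 0.296 in other cells, but 86.8% of the NC reads came from 1 cell. Together with *FGF3* and *FGF5* it was among the 3 at least 2-fold higher. *FGF3* had 8 NC reads, and *FGF5* had 77, with 5 or more in 0.645% of NCs. *FGF21*, a hormone and the highest of them in other cells, was the 1 lower, at 0.0757 and 1.39 RPM (the names *FGF3*, *FGF5* and *FGF21* were chosen after their values were seen). The median log2 ratio of the 9 was 0.86, beside 0.26 over the 13498 genes. *KL*, the klotho co-receptor of the hormone *FGF23* and the higher one of the other receptors and klothos in other cells, was at 0.318 and 2.12 RPM. *KL* was lower and *KLB* higher among the 2 measured of 3, with a median of -0.08.

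The intracellular FGF homologous factors, which bind sodium channels and do not act as classical receptor ligands, numbered 4, of which 2 were at least 2-fold higher and 0 lower in NCs, with a median of 0.88. *FGF11* was at 34.0 RPM in NCs and 11.5 in other cells, and *FGF12* at 11 and 3.09. Of the tags with at least 50 NCs, A952 had these differences, with *FGF11* at 41.0 and 15.7 RPM and *FGF12* at 13.3 and 2.55. In A951 *FGF11* was at 3.52 and 13.3 RPM and *FGF12* at 2.79 and 3.44. The mural marker *ACTA2* had the same pattern, with 90.1 and 4.69 RPM in A952 and 1.97 and 10.2 in A951. The remaining mural markers did not have it. *RGS5* was at 10.2 and 5.15 RPM in A952 and 2.87 and 2.46 in A951. *MYH11* was at 0.916 and 1.42 RPM in A952 and 0.983 and 0.858 in A951. *PDGFRB* was at 10.5 and 24.3 RPM in A952 and 24.4 and 25.2 in A951. The part of mural cells was not tested. In A954, *FGF11* was at 83.7 RPM in the 2 NCs and 14.4 in other cells, while *FGF12* was at 0 and 2.60. In A953, *FGF11* was at 89.9 RPM in 1 NC and 0 in the remaining 4, with 3.12 in other cells.

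Among the FGF binding proteins, secreted carriers of which 2 of 3 were measured, *FGFBP2* was at 1.24 RPM in NCs and 80.0 RPM in other cells, a log2 ratio of -6.01. It had 5 or more reads in 1 of 310 NCs (0.323%, 0.00817 to 1.78%) and 634 other cells (11.9%, 11 to 12.8%). The ratio was -6.86 in A951 and -6.54 in A952, and the other cells of the 4 tags were at 104, 114, 93.7 and 52.2 RPM. *FGFBP1* was at least 2-fold higher (8.69 and 3.17 RPM), though not in A951 (2.54 and 3.88), which gave 1 higher and 1 lower and a median of -2.28 (it was named after its values were seen).

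Heparan sulfate, the co-receptor chain that FGFs need for receptor binding, is carried by core proteins. Of 11 listed, 10 were measured, with 2 at least 2-fold higher, 1 lower and a median log2 ratio of -0.12. *SDC2*, a syndecan and the most abundant of them, was at 4692 RPM in NCs and 1175 in other cells, and its log2 ratio was 1.99 in A951 and 1.97 in A952. The other one was the glypican *GPC3*, at 9.40 and 1.81 RPM. *GPC6*, also a glypican, was the one lower, with 45 and 210 RPM and 5 or more reads in 21.0% of NCs (16.6 to 25.9%) and 60.1% of other cells (58.8 to 61.4%). *HSPG2*, which encodes perlecan, the proteoglycan that holds FGF2 around chondrocytes, was at 373 and 435 RPM (*HSPG2* and *GPC3* were named after their values were seen).

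Of 12 enzymes that build or trim heparan sulfate, 7 were measured, with 2 at least 2-fold higher, 2 lower and a median of 0.75. *GLCE*, the epimerase of its uronic acids, was at 41.1 RPM in NCs and 11.6 in other cells, and *EXTL3*, which starts the chain, at 48.5 and 18.9. *SULF2*, a sulfatase that removes sulfate groups from the finished chain outside the cell, was at 26.3 and 207 RPM, with log2 ratios of -1.75 in A951 and -3.00 in A952, and *SULF1*, its paralog, at 10.6 and 30.5 RPM. Both sulfatases also varied over the tags of the other cells, with *SULF2* at 134, 137, 344 and 175 RPM and *SULF1* at 37.5, 29.6, 54.5 and 14.3 RPM.

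The signal relay between receptor and ERK stayed mostly within 2-fold. Of the 15 measured genes of 18 listed, 2 were at least 2-fold higher (*GAB1* and, named after its values were seen, the docking protein *FRS3* at 4.69 and 1.33 RPM), and the median log2 ratio was 0.27. The adaptor *GRB2*, the highest of them in NCs, was at 160 RPM in NCs and 94.9 in other cells. *GAB1*, a docking protein as well, was at 38.8 and 13 RPM, and its log2 ratio was 1.05 in A951 and 1.30 in A952.

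Genes that ERK induces, and inhibitors that feed back on the pathway, moved in both directions. Of 19 measured of 21 listed, 6 were at least 2-fold higher and 8 lower, with a median of -0.42, beside 24.5% and 13.6% of all genes. At 10 RPM or more these were 5 and 6 of 16, with a median of -0.25. *MYC*, a growth regulator and the most abundant, was at 357 RPM in NCs and 320 in other cells. *DUSP4*, a phosphatase of ERK, was at 17.4 RPM in NCs and 0.152 in other cells, with 5 or more reads in 20 NCs (6.45%, 3.99 to 9.79%) and 4 other cells (0.0749%, 0.0204 to 0.192%). *IL17RD*, a membrane inhibitor of FGF receptor signalling, was at 28.6 and 1.21 RPM, with 12.3% of NCs (8.82 to 16.4%) and 0.187% of other cells (0.0898 to 0.344%) at 5 or more reads. Both were higher in NCs of A951 (3.85 against 0.0803 RPM for *DUSP4*, 18.5 against 0.903 for *IL17RD*) and of A952 (21.5 against 0.571, 32.3 against 2.42). The other cells of A952, highest for both genes, were also highest for *KRT19* (24.3 RPM) and *TBXT* (5.21 RPM), and the part of cells just outside the NC rule was not tested.

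On the other side, the FGF-induced transcription factor *ETV4* was at 0.757 RPM in NCs and 14.0 in other cells, and the Sprouty inhibitor *SPRY1* at 4.78 and 34.5 RPM. *SPRY1* had 50.9% of its NC reads in 1 cell. The log2 ratios were -4.00 and -4.27 for *ETV4* and -2.64 and -3.94 for *SPRY1* in A951 and A952. The feedback inhibitors therefore did not share a direction. *SPRY2* (74.0 and 170 RPM) and *SPRED1* (19.1 and 132) were lower, *SPRED2* (15.3 and 7.01) was higher, and *DUSP6* (24.5 and 35) was between the limits. Of the induced transcription factors, *ETV5* was at 132 and 88.3 RPM (60.9 and 90.7 in A951, 153 and 92.5 in A952) and *EGR1* at 314 and 130 (507 and 124 in A951, 277 and 192 in A952, these 6 genes were named after their values were seen).

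**Figure D5:**
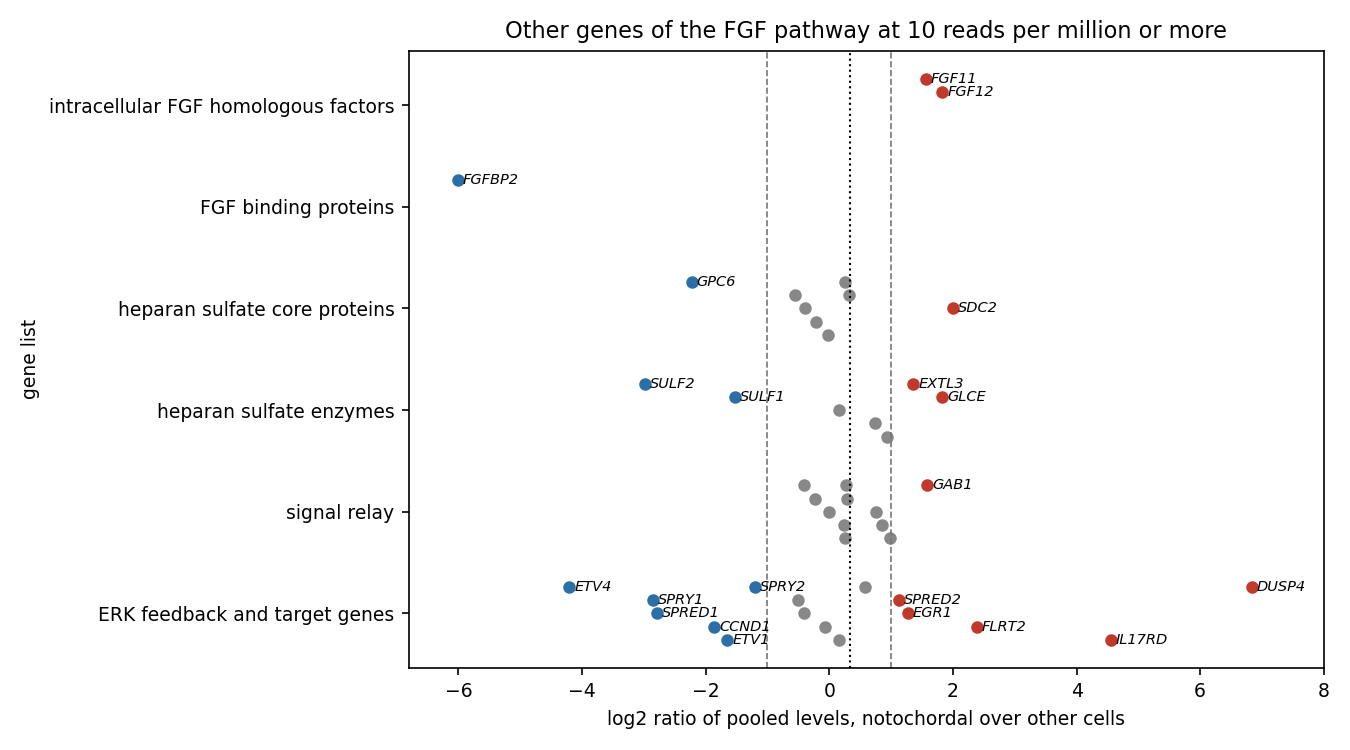
Log2 ratio of pooled levels, NCs over other cells, of the pathway genes reported here at 10 RPM or more in either group, by list, with red points at least 2-fold higher, blue points at least 2-fold lower and the median of all 8522 genes dotted. The ERK feedback and target list spreads widest, from *ETV4* at -4.20 to *DUSP4* at 6.84, and *FGFBP2* lies farthest to the left at -6.01.

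The other cells were also divided by *ASPN* and *CILP*, matrix genes of fibrocartilage, because *FGF18* stands in the study's marker list of AC, a list made partly from these cells that gives no independent support. With 5 or more reads of both genes there were 885 cells, and 4458 without. *FGF18* was at 172 RPM in the former and 122 in the latter, and *FGFR2* at 48.3 and 30.2. *FGFR1* was at 682 and 924 RPM, *FGF2* at 405 and 457 and *FGFR3* at 85.1 and 96.9. None of these 5 differed 2-fold, beside 1.07% of 7452 genes at least 2-fold higher and 2.39% at least 2-fold lower in cells with *ASPN* and *CILP*. The count does not set the members apart.

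The differences for *FGF18* were uneven over tags, with 132 against 128 RPM in A951, 177 against 122 in A952, 99.6 against 90.2 in A953 and 218 against 138 in A954. With 20 reads of both genes required, they turned to 121 against 129 in A951 and 87.5 against 94.7 in A953. For *FGFR1* the cells with *ASPN* and *CILP* were lower in 4 of 4 tags, at 728 against 1032, 706 against 927, 744 against 841 and 638 against 921 RPM. For *FGFR2* they were at 45.7 against 30.1, 31.8 against 30.9, 42.8 against 22.5 and 53.5 against 34.5 RPM, so that the difference was absent in A952. Cells with *ASPN* and *CILP* were deeper, with a median of 289482 reads against 186912. The share with 5 or more *FGF18* reads was 42.3% against 23.0%, and 31.6% (28.5 to 34.8%) against 18.6% (17.5 to 19.8%) when thinned.

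In the 72 other cells with 5 or more reads of *COL10A1*, the collagen of hypertrophic chondrocytes, *FGFR3* was at 143 RPM against 93.3 in the remaining 5271, but the tags differed, at 211 against 112, 56.5 against 95.2, 71.1 against 70.2 and 188 against 99.5 RPM. That division was chosen after the data were seen. Among NCs, the 72 with 5 or more *SHH* reads and the 238 without had *FGFR3* at 179 and 174 RPM, *FGFR1* at 382 and 323, *FGFR2* at 54.5 and 49.3 and *FGF2* at 42.7 and 57.0. The *FGF2* values had opposite directions in the tags, with 87.2 and 33.8 RPM in A951, where 9 NCs had *SHH*, and 18.6 and 54.3 in A952. *FGF18* was at 19.5 and 9.08 RPM but rested on 3 and 6 cells with 5 or more reads, and the values were 64.8 and 1.76 RPM in A951 and 16.7 and 11.7 in A952. Of these 5 members it was the 1 at least 2-fold higher, and 0 were lower, beside 6.8% of genes higher and 12.5% lower in NCs with *SHH*.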

How the data were processed

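The deposited values were raw counts of reads per gene and cell. According to the study's methods and the labels, the authors aligned reads with HISAT2 2.2.1, assigned them by strand to whole genes of a filtered Ensembl annotation, introns included, with featureCounts 2.0.2, allowing multi-mapping reads, and split them by cell without collapsing PCR copies. The genome build is not given in the sources used here. A second matrix with 1358 cells that no label names was not used.

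Cells with 1 tag, 200 to 9000 genes and under 5% reads of the 13 mitochondrial genes were kept, as in the study. Reads were summed over the 310 NCs and the 5343 other cells, 66069761 and 1275235761 reads, and per tag. Log2 ratios used a floor of 3 reads and are descriptions without a test, because there was 1 library. Counts past 2-fold were set beside those of all genes with a read in at least 1% of cells or at 10 RPM or more. Cells were thinned to 50000 reads to compare shares. Calculations used Python 3.11.15, numpy 2.4.6, scipy 1.17.1 and matplotlib 3.10.9, were tested on simulated data and were repeated with other NC rules, filters, scalings and folds and without each tag.

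The members, the pathway lists and the divisions of cells were chosen with earlier results of these data known. All 7 measured members were named. In each pathway list the gene with the highest RPM in either group and up to 4 genes at 10 RPM or more with the largest ratios past 2-fold were named, and genes outside that rule are marked as chosen after their values were seen. A gene of the signal relay list that this rule selects is not reported here.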

Additional observations from a re-analysis of the deposited data

Results flagged for a closer look

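Among the 24 genes examined tag by tag, *FGF11* and *FGF12* had opposite directions in both tags with many NCs. The log2 ratio of NCs over other cells for *FGF11* was -1.92 in A951 and 1.39 in A952. For *FGF12* it was -0.30 in A951 and 2.39 in A952. Genes outside these 24 also had opposite directions, among them *ETV5* (-0.58 in A951 and 0.73 in A952) and *FGFBP1* (-0.61 and 2.00). The difference between the tags was not tested.

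In other cells, tag A952 stood apart from the remaining 3 tags for *DUSP4* and *IL17RD*, which were high in NCs. *DUSP4* was at 0.571 RPM in A952 and at 0.0803, 0.0603 and 0.0975 in A951, A953 and A954. *IL17RD* was at 2.42 RPM in A952 and at 0.903, 1.04 and 1.03 in the same tags. Chance alone sets apart about 1 in 20 groups by the gap used here.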

How the results depend on the processing

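The log2 ratio, NCs over other cells, kept its sign under 14 of 14 settings for each of *FGF2*, *FGF18*, *FGFR1*, *FGFR2* and *FGFR3*, but its size changed. For *FGF2*, *FGF18* and *FGFR1* it moved most with the definition of NCs, for *FGFR2* most without A952 and for *FGFR3* most with centring. With 1 read of *KRT19* and *TBXT* it was -1.23, -1.11, -0.84, 0.34 and 0.56 in that order of genes. With 5 reads of either marker it was -2.39 for *FGF2*, -2.41 for *FGF18*, -1.12 for *FGFR1* and 0.69 for *FGFR3*. With 20 reads of each it was -3.36 for *FGF18* and -1.44 for *FGFR1*. Thinning gave -3.34 for *FGF2*, -3.80 for *FGF18* and 0.49 for *FGFR2*. The mean of single cells gave -3.31 for *FGF2*, -3.90 for *FGF18*, -1.38 for *FGFR1* and 0.50 for *FGFR2*. Without the cell with the most reads it was -3.21 for *FGF2*, -3.91 for *FGF18* and 0.50 for *FGFR2*. Some settings were chosen after seeing the data. Against other cells without any *KRT19* or *TBXT* read, *FGF2* was at -3.12, and after centring on the median gene the 5 ratios were -3.41, -3.82, -1.69, 0.22 and 0.56. The cause of these shifts was not tested.

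Leaving out each tag in turn gave -3.34 to -2.33 for *FGF2*, -4.16 to -3.21 for *FGF18*, -1.42 to -1.17 for *FGFR1*, 0.35 to 0.96 for *FGFR2* and 0.79 to 1.03 for *FGFR3*. The number of members at least 2-fold higher was 0 to 2 in these runs, the 2 being *FGFR3* and *FGF10* (11 NC reads) without A952, and it was also 2, the same genes, at 1.5-fold. The number at least 2-fold lower was 3, and 2 with 1 read of each marker or at 3-fold. Of 182 shares of cells under alternatives, 131 lay inside the interval of the reported share and 51 outside. Some settings kept the same 310 NCs, so that NC shares could not change, and others counted another minimum of reads. The count is therefore not read as a measure of stability. NCs and other cells share tags, and the ratios within A951 and A952 stand beside the pooled ones in the results, with no test of either. The few reads of *FGF7* and *FGF10* limit the values of these genes, and the few NCs of A953 and A954 limit every value of those tags.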
